A study of Mus musculus with 8 samples.

Results

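The 37 genes described here encode factors of messenger RNA decay, and their transcripts were examined for recovery with the RNA-binding zinc finger protein Zmat3. The genes were taken from a fixed list of factors of nonsense-mediated decay, deadenylation, decapping, exonucleolytic decay, AU-rich element recognition and microRNA repression. A called peak was counted for a gene when its midpoint lay in the gene's span on mouse genome build mm10, on the strand that held most called peaks of that gene. By this rule 6736 of the 978429 called peaks in 7 peak lists belonged to the 37 genes. The strand chosen in this way was that of the RefSeq promoter table (GRCm38.p6) for 32 of the 32 members listed there.

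The peaks came from crosslinking and immunoprecipitation (CLIP), in which UV light links proteins to the RNA they touch before the protein is pulled down with an antibody. All lines were mouse embryonic fibroblasts transformed by retroviral E1A, an adenoviral oncogene, and HrasG12V, an oncogenic form of a growth-signalling GTPase. The 3 control lines had the genotype Cas9+;E1A;HrasG12V and carried the guide RNAs sgNegative control EV (control 1), sgNegative control SPA (control 2) and sgNegative control ACOCA (control 3). The knockout was 1 line of genotype Zmat3-/-;E1A;HrasG12V that carried no guide RNA, so Cas9, the lentivirus and the origin of the fibroblasts differed from the controls together with Zmat3. Each immunoprecipitate (IP) used 1 anti-Zmat3 antibody, and RNA was recovered from gel material between 35 and 110 kDa. Each IP was compared by the authors with input, and each control IP was also compared with the knockout IP, which measures what the antibody recovers without Zmat3. Because all 3 of these latter lists share the 1 knockout library, they are not independent of each other.

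Messenger RNAs are usually degraded after their poly(A) tail is shortened by the Ccr4-Not and Pan2-Pan3 complexes. The cap is then removed by Dcp2 with its activators, and the body is digested by Xrn1 from the 5′ end or by the exosome from the 3′ end. Nonsense-mediated decay, driven by the Upf and Smg proteins, removes transcripts with premature stop codons, while AU-rich element binding proteins and microRNA-loaded Argonautes mark other transcripts for decay. Many RNA-binding proteins bind transcripts that encode RNA-binding proteins, and the measurements below describe the RNAs of these factors, not the proteins.

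Peaks called over input numbered 129323, 153768 and 122284 for controls 1 to 3, and 167648 for the knockout. Read counts were not part of the lists; the depth is unknown, and counting intervals are not given. The fibroblast marker genes Vim and Fn1 carried 13 to 21 and 59 to 79 called peaks over input in each of the 4 IPs, whereas Col1a1, Col1a2, Thy1 and Lox carried none in any of them. Fibroblast markers differed in both directions, since Pdgfrb had 16, 12 and 10 called peaks in controls 1 to 3 and 2 without Zmat3, and Fbn1 had 3, 4 and 9 against 19. Of the epithelial markers, Epcam had 9, 5 and 11 peaks in the controls and 10 in the knockout, and Krt18 had 0, 5 and 0 against 8. Cdh1 had 0, 0 and 1 against 1, and Krt8, Krt14 and Cldn4 had none in any IP. Neuronal Map2 had 9, 8 and 4 and none in the knockout, and Syt1 had 0, 2 and 0 and none in the knockout. Neuronal Tubb3, Rbfox3 and Snap25 had none in any IP. Of the immune markers, Cd68 had 1, 3 and 2 against 2, and Ptprc, Adgre1, Cd3e and Lyz2 had none. No peak was called in the 5 endothelial genes. The part of these differences in the results below was not tested.

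Peaks were called in all 37 members in every control, from 2 to 100 per gene and library over input. A peak was called enriched when its log2 fold was at least 3 and its −log10 p-value at least 3, both as deposited by the authors. Over input, 7 of 885 member peaks were enriched in control 1, 9 of 1076 in control 2 and 13 of 872 in control 3. These counts correspond to 0.791%, 0.836% and 1.49% of the members' called peaks. The background over all called peaks of the same lists was 1.02%, 1.05% and 0.494%. The members' share was thus below the background in controls 1 and 2 and above it in control 3. In the knockout, 8 of 1070 member peaks (0.748%) were enriched over input against a background of 0.316%. The share was 1.04% ± 0.39 (SD, n = 3) in the controls, and the knockout value lay below those of all 3 controls. The libraries' backgrounds differed as well, and a permutation test of 1 library against 3 cannot give a p below 0.25, so no difference could be shown.

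Over the knockout IP, 2 of 885 member peaks were enriched in control 1, 12 of 1076 in control 2 and 4 of 872 in control 3. The shares were 0.226%, 1.12% and 0.459%, beside backgrounds of 0.621%, 1.09% and 0.648%. The mean was 6 ± 5.29 peaks (SD, n = 3), and without control 2 it was 3. Members therefore carried enriched peaks over the knockout IP at about or below the rate of all peaks in each control.

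**Figure D1:**
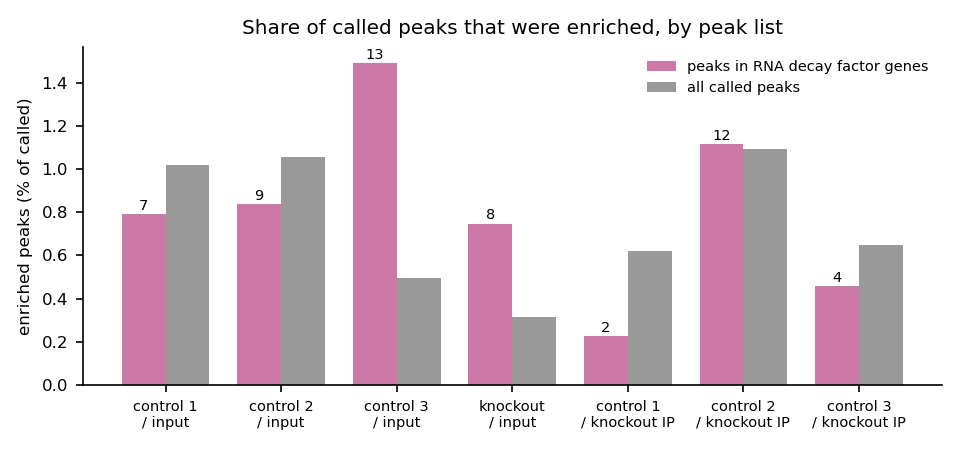
Share of called peaks that were enriched, in percent, for each of the 7 peak lists. Pink bars stand for peaks in the 37 RNA decay factor genes with their number of enriched peaks on top, and grey bars stand for all called peaks. Member bars exceed the grey bars clearly for control 3 and the knockout over input, and stand near or below them elsewhere.

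Enriched peaks of any list lay in 12 of the 37 members, and merging those that overlapped gave 21 sites of 43 to 251 nt (median 88 nt). The matching share over all protein-coding genes was not computed, so the count of genes is a description. At a site, each library is represented by the peak of its own with the highest log2 fold. The sites were split into a pair of classes by whether the knockout IP had a called peak at the same place. At 12 sites in 9 genes it had none, and the mean log2 fold of the controls was 2.05 to 5.64 over input and 2.73 to 6.16 over the knockout IP. At the other 9 sites, in Exosc10, Dcp2, Ago1 and Ago2, a knockout peak was called, and the control means were 1.54 to 3.97 over input but −1.70 to 0.58 over the knockout IP. Enrichment in any list chose the sites, and the split used the knockout IP, which is also the comparator. The contrast over the knockout IP was thus set in part by the split, and these ranges are a description. No site lay in the span of another gene. In the direction of transcription, 6 of the 21 lay in the last 10% of the gene span, among them the adjoining Ago2 sites. The share of all called peaks in that part of the spans was not computed.

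**Figure D2:**
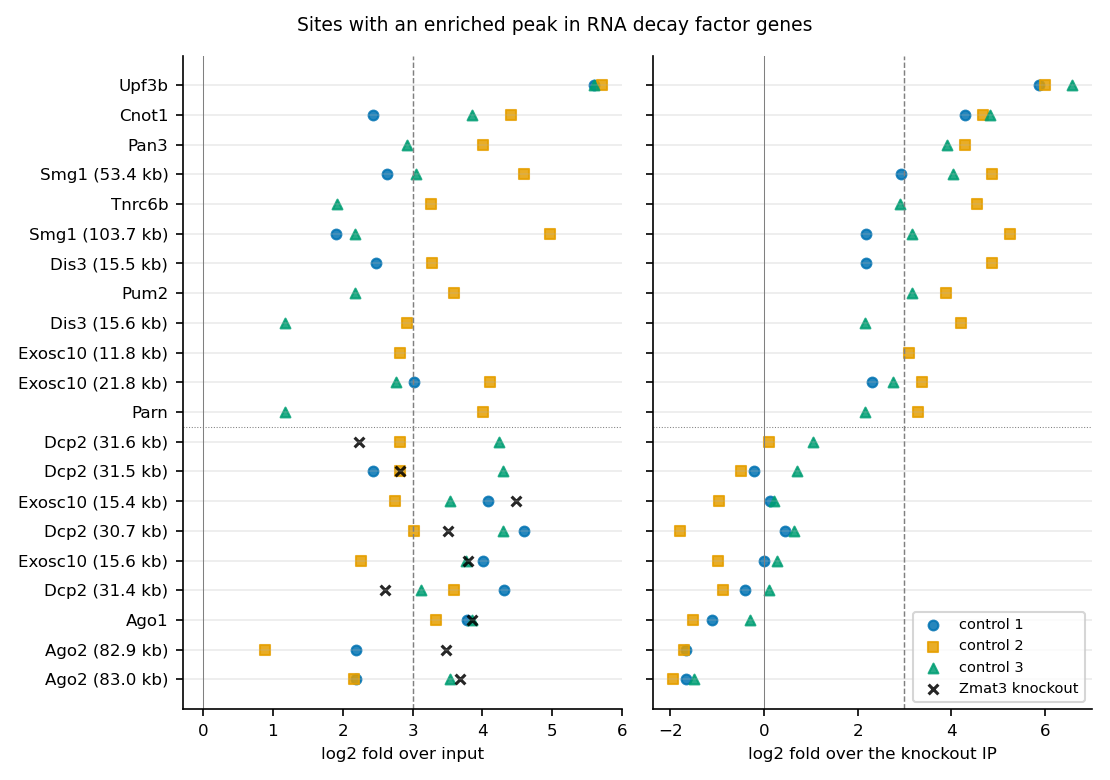
Log2 fold over input (left) and over the knockout IP (right) at the 21 sites, with 1 symbol per library, the threshold of 3 as a dashed line and distances from the 5′ end of the gene span in brackets where a gene has several sites. Above the dotted line are the 12 sites without a called knockout peak and below it the 9 sites with one. This split uses the knockout IP and so set part of the contrast on the right. Upf3b stands apart at the top in all 3 controls, and the sites of Dcp2, Ago1, Ago2 and the pair of Exosc10 sites below the line centre near or below 0 over the knockout IP.

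A reproducible region was defined as a place where at least 2 of 3 controls had a peak enriched over input, overlapping one that was enriched over the knockout IP in that control too. The rule found 203 such regions in the whole series and 2 in the members, 1 each in Upf3b and Cnot1. The members' share of genes with a region was 5.41% (2 of 37), and the share over protein-coding genes called in all 3 controls was 2.28% (195 of 8571). Members also had a median of 16 called peaks per gene and control against 8.67 for those genes, and a median span of 41905 nt against 27511 nt. Among genes with at least 10 called peaks in every control list, a subset added after seeing the data, the order was reversed, with a region in 1 of 26 members (3.85%, Cnot1) and in 146 of 3024 genes (4.83%). Loosened to 1 control, the rule was met by 8 members (21.6%) and by 9.70% of the protein-coding genes. In the subset these shares were closer, 23.1% (6 of 26) and 18.9% (573 of 3024).

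Upf3b, an X-linked factor that joins the exon junction complex to Upf2 in nonsense-mediated decay, held the strongest site of the set. It lay at chromosome X, 37092699–37092804 on the minus strand (mm10), 106 nt long and 1021 nt from the 3′ end of the gene span. Whether it falls in an exon, an intron or a UTR was not analysed here. Its log2 fold over input was 5.60, 5.72 and 5.60 in controls 1 to 3, and no peak was called there in the knockout. The 3 controls thus lay close together and far above the threshold, with a mean of 5.64 ± 0.07 (SD, n = 3). The −log10 p-values over input were 12.3, 14.3 and 14.2. The log2 fold over the knockout IP was 5.88, 6.0 and 6.58, with a mean of 6.16 ± 0.37 (SD, n = 3). All enriched peaks of Upf3b lay in this site. Outside the site, the highest log2 fold over input was 1.31, 3.02 and 1.60 in controls 1 to 3 and 0.65 in the knockout. Enriched peaks defined the site, so the lower level outside it was set in part by this choice. Few peaks were called in this gene, 5, 6 and 10 in the controls and 5 in the knockout.

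Cnot1, the scaffold of the Ccr4-Not deadenylase, held the second region at chromosome 8, 95730731–95730846 on the minus strand. It lay 77267 nt from the 5′ end and 11800 nt from the 3′ end of the span. Its log2 fold over input was 2.43 in control 1, 4.41 in control 2 and 3.84 in control 3, with no called knockout peak and a mean of 3.56 ± 1.02 (SD, n = 3). Control 1 thus missed the threshold over input, and the region rested on controls 2 and 3. All 3 controls were enriched over the knockout IP and close together, at 4.30, 4.69 and 4.83 (mean 4.61 ± 0.27, SD, n = 3). The −log10 p-values over the knockout IP were 4.26, 6.21 and 6.46. Cnot1 had far more called peaks than Upf3b, 57, 66 and 64 in the controls and 72 in the knockout. Elsewhere in the gene no peak exceeded a log2 fold over input of 2.90, 2.82 and 2.92 in controls 1 to 3 and 1.65 in the knockout. Here too, the lower level outside the site was set in part by the choice of the site.

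**Figure D3:**
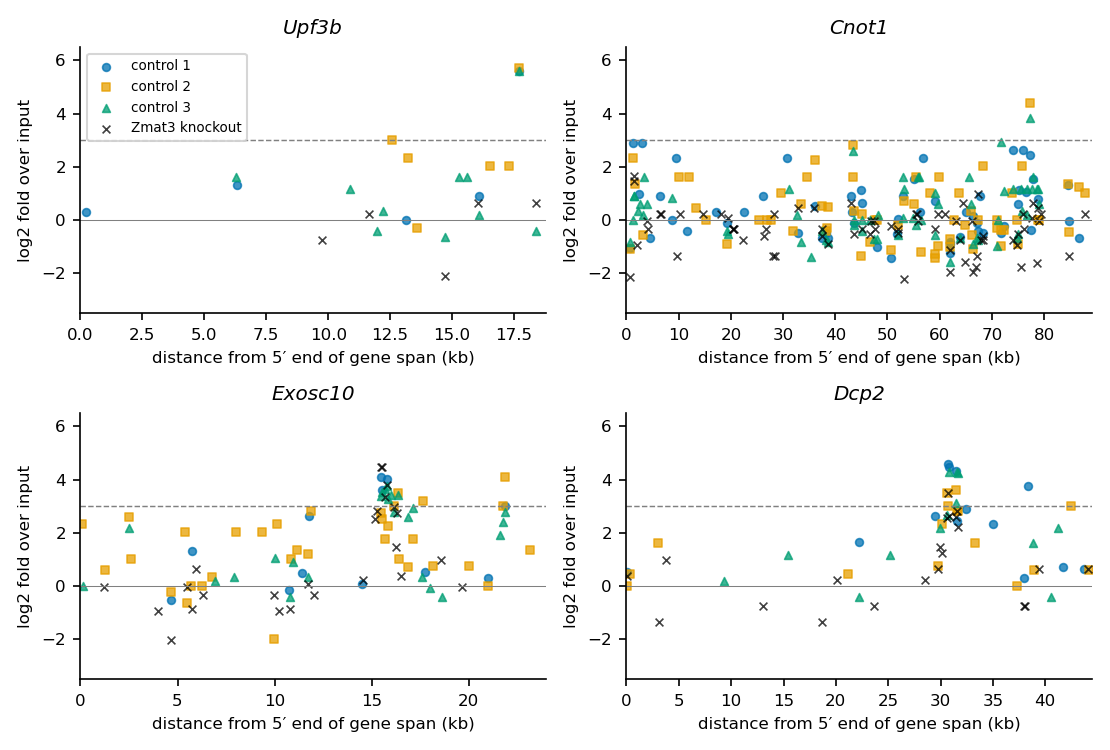
Log2 fold over input of each called peak (1 symbol per library) against its distance in kb from the 5′ end of the gene span, for Upf3b, Cnot1, Exosc10 and Dcp2, with the threshold of 3 as a dashed line. At 1 site the peaks of all 3 controls in Upf3b, and those of controls 2 and 3 in Cnot1, stand above the rest with no knockout peak beside them. In Exosc10 and Dcp2 a cluster of high peaks holds control and knockout symbols together.

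The remaining 6 members with a qualifying peak met the rule in control 2 alone. Smg1, the kinase that phosphorylates Upf1, had a pair of such sites. At chromosome 7, 118190953–118191040 the log2 fold over input was 2.64, 4.60 and 3.06 in controls 1 to 3, and over the knockout IP it was 2.92, 4.88 and 4.04. Control 3 was also enriched over the knockout IP at this site (−log10 p-value 3.49) but not over input (1.77). At chromosome 7, 118140685–118140777 the log2 fold over input was 1.90, 4.97 and 2.18, so control 2 stood well above both other controls. Neither site had a called knockout peak.

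Pan3, the poly(A)-binding adaptor of the Pan2 deadenylase, had a site at chromosome 5, 147539147–147539260. Its log2 fold over input was 4.02 in control 2 and 2.92 in control 3, and over the knockout IP it was 4.30 and 3.90. Both controls were enriched over the knockout IP there, and control 1 had no called peak. Parn, a poly(A)-specific ribonuclease, had its site near the other end of the transcript, 3102 nt from the 5′ end of the span (chromosome 16, 13664957–13665096). The values over input were 4.02 in control 2 and 1.18 in control 3, and over the knockout IP 3.30 and 2.17. Control 3 thus lay far below control 2 at the Parn site.

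Among the exonucleases, Dis3, a catalytic subunit of the exosome, had adjoining sites at chromosome 14, 99084181–99084223 and 99084224–99084309. At the second, the log2 fold over input was 2.48 in control 1 and 3.28 in control 2, and over the knockout IP it was 2.18 and 4.88. Control 3 had no called peak at this site, and 1.18 over input at the adjoining one. Exosc10, the nuclear exosome ribonuclease, had a qualifying site at chromosome 4, 148580246–148580314, with a log2 fold over input of 3.02, 4.10 and 2.77. All 3 controls were called there and the knockout was not, and over the knockout IP the values were 2.30, 3.38 and 2.75. Tnrc6b, a scaffold that joins Argonautes to the deadenylases, had 3.26 over input in control 2 and 1.92 in control 3 at chromosome 15, 80894198–80894283, and 4.55 and 2.90 over the knockout IP. Pum2, which binds Pumilio elements in 3′ UTRs, was enriched over the knockout IP in control 2 (3.88) but missed the p-value threshold over input (log2 fold 3.60, −log10 p-value 2.76).

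Control 2 had the highest value over input at all 12 sites without a called knockout peak, and over the knockout IP at 10 of them. Enrichment in any list chose the sites, and 7 of them met the rule in control 2 alone. The order of the controls was thus set in part by this choice and is a description. Control 2 also had the most called peaks of the 3 controls and the largest share of enriched peaks over all genes. The part of this library in the sites seen in control 2 alone was not tested.

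Nearly all peaks of a control had the same coordinates in its 2 lists (129084 of 129323, 153498 of 153768 and 122036 of 122284), and the difference of the folds at such a peak is the ratio of the comparators, input and knockout IP. One difference recurred, namely 0.285, 0.281 and 0.986 (log2) in controls 1 to 3, at 18.0%, 20.5% and 20.6% of these peaks. Among member peaks it recurred at 17.7%, 19.5% and 19.2%. At a peak with this difference, the fold over the knockout IP is the fold over input plus a constant and adds no further measurement. All 3 controls were at this difference at the Upf3b site, and controls 2 and 3 were at the Cnot1 site. Over the 12 sites without a called knockout peak it held for 19 of 28 control values, and over the 9 sites with one for 0 of 25. Both the classes and this difference depend on the signal of the knockout IP, so the contrast is not independent of the split. The sources used here do not say how the authors treated peaks without reads in a comparator.

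**Figure D4:**
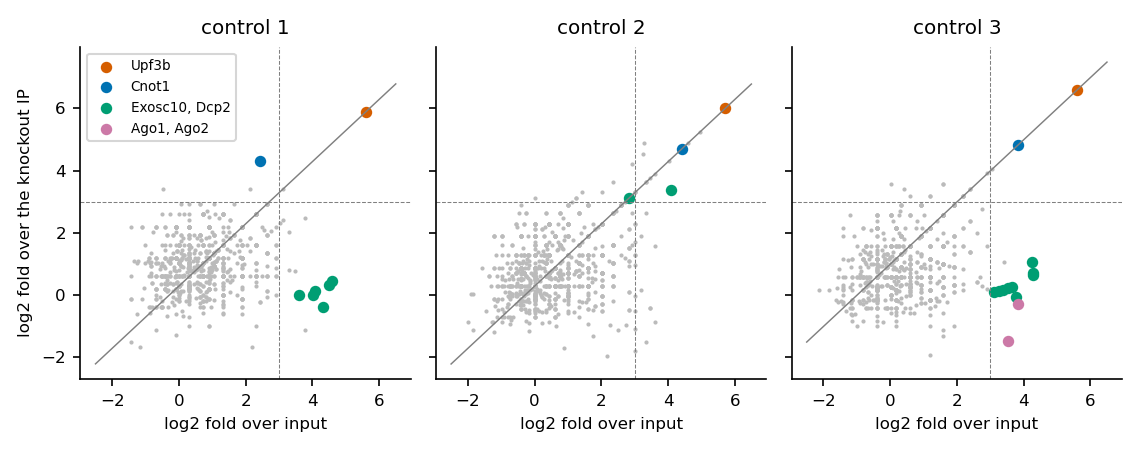
Log2 fold over the knockout IP against log2 fold over input for each called member peak of controls 1 to 3, with thresholds of 3 as dashed lines and the recurring difference of each list as a solid line. Coloured points are enriched peaks of the named genes. Upf3b lies on the line in all 3 controls and Cnot1 in controls 2 and 3, whereas the peaks of Ago1, Ago2, Dcp2 and most of those of Exosc10 lie below it.

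The Dcp2 and Exosc10 transcripts held the widest stretches of sites with called peaks both with and without Zmat3. Each stretch runs from the first to the last site with a called knockout peak. Its higher level than the rest of the gene was thus set in part by this choice. In Dcp2, the catalytic decapping enzyme, 4 sites lay within 973 nt of chromosome 18 (44411188–44412160), 12809 nt from the 3′ end of the span. The median log2 fold over input of the called peaks in this stretch was 4.40, 2.92 and 4.27 in controls 1 to 3 and 2.65 in the knockout. In the rest of the gene it was 1.64, 0.68 and 1.18 in the controls and 0.31 in the knockout. Of the peaks called in the stretch, 3 of 4, 0 of 4 and 4 of 4 were enriched over input in controls 1 to 3, and 1 of 5 in the knockout. At the strongest of these sites, 44411188–44411370, the values over input were 4.60, 3.02 and 4.30 in the controls and 3.50 in the knockout, which thus lay within the range of the controls. The same site had, over the knockout IP, 0.46, −1.79 and 0.64, a mean of −0.23 ± 1.35 (SD, n = 3).

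In Exosc10, a stretch of 465 nt (chromosome 4, 148573852–148574316) was likewise high in both. Its median log2 fold over input was 4.02, 2.38 and 3.54 in controls 1 to 3 and 4.13 in the knockout, against 0.48, 1.26, 1.06 and −0.03 in the rest of the gene. All 4 knockout peaks called in this stretch passed both thresholds over input, and in controls 1 to 3 it was 3 of 3, 0 of 4 and 5 of 5. Over the knockout IP, the site at 148573852–148574012 had 0.12, −0.97 and 0.22 in controls 1 to 3. This stretch lies upstream of the Exosc10 site at 148580246, which had no called knockout peak, so peaks of both classes occurred in 1 transcript.

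The Argonaute transcripts Ago1 and Ago2, whose proteins carry microRNAs, had sites with values over the knockout IP below 0 in every control called. At the Ago1 site (chromosome 4, 126455441–126455537) the log2 fold over input was 3.77, 3.34 and 3.84 in the controls and 3.86 in the knockout, and over the knockout IP it was −1.11, −1.51 and −0.30. At the Ago2 site 210 nt from the 3′ end of the span (chromosome 15, 73101835–73101964) it was 2.19, 2.17 and 3.54 over input, and 3.68 in the knockout. The knockout value thus exceeded all 3 controls at both sites, although at each of them the margin over control 3 was smaller than the SD over controls (0.27 for Ago1 and 0.78 for Ago2). The Ago2 site had, over the knockout IP, −1.66, −1.95 and −1.49, with a mean of −1.70 ± 0.23 (SD, n = 3). Across the series, 10.8% of the members (4 of 37) had a knockout peak enriched over input, beside 2.50% of protein-coding genes called in the knockout (250 of 9990). The 4 members were Dcp2, Exosc10, Ago1 and Ago2. Over protein-coding genes called in all 3 controls, as the members were, the share was 2.89% (248 of 8571). Among genes with at least 10 called peaks in every control list both shares were higher and their ratio was lower, at 15.4% (4 of 26) and 6.71% (203 of 3024).

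The other 25 members had no enriched peak in any list, a count without a matching share over all genes. They were Elavl1, Zfp36, Zfp36l1, Zfp36l2 and Khsrp of the AU-rich element group, Upf1, Upf2, Upf3a, Smg5 and Smg6 of nonsense-mediated decay, and Cnot2, Cnot3, Cnot4, Cnot6, Cnot6l, Cnot7, Cnot8 and Pan2 of deadenylation. Dcp1a, Edc3 and Edc4 of decapping, Tnrc6a and Tnrc6c of microRNA repression, and the 5′ exonucleases Xrn1 and Xrn2 completed the set. Their highest log2 fold over input was 3.31 (Upf1), 3.34 (Upf2 and Cnot2) and 2.40 (Upf2, Dcp1a and Tnrc6a) in controls 1 to 3. In the knockout it was 2.23 (Cnot2 and Tnrc6c). Single peaks thus reached the fold threshold in controls 1 and 2 without reaching the p-value threshold.

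Beyond single sites, the level of all called peaks of a gene was compared with the library. The shift of a gene is the median log2 fold of its called peaks minus the median of all called peaks in that list. Whether a shift reflects bound RNA, the RNA level of the gene or background in the lines was not tested. Bulk libraries also do not separate a change in some cells from a smaller change in every cell. Over the knockout IP, the median shift over the 37 members was −0.14, against 0.08 over the 8571 protein-coding genes called in all 3 controls. In genes with at least 10 called peaks in every control list, it was −0.14 for 26 members and −0.03 for 3024 genes. Without control 2 the median over the 37 members was −0.21, and without control 3 it was −0.04. The shift was below 0 in all 3 controls for 10 members, beside 20.3% of the protein-coding genes, and above 0 in all 3 for 3 members (Smg6, Edc3 and Xrn1), beside 23.6%.

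The AU-rich element group had the lowest levels, with a mean shift over the knockout IP above 0 in 0 of 5 members and a group median of −0.56. Khsrp, a KH-domain protein that recruits decay enzymes to AU-rich elements, had −1.05, −0.78 and −0.70 in controls 1 to 3 (mean −0.84 ± 0.18, SD, n = 3). Its 3 controls all lay below the library median. Over input the Khsrp shift was −0.91, −0.58 and −1.07 in the controls and −1.04 in the knockout, so its peaks were also low without Zmat3. Zfp36l1 and Zfp36l2, zinc finger proteins that bind AU-rich elements, were below 0 in all 3 controls with means of −0.56 ± 0.37 and −0.48 ± 0.27 (SD, n = 3). Zfp36l1 had only 8, 7 and 2 called peaks in controls 1 to 3, and Zfp36l2 had 11, 7 and 10. Zfp36 (tristetraprolin), with 6, 3 and 8 called peaks, had −0.64, −1.39 and 0.07, the one value above 0 in the group. Elavl1, which stabilises its targets, had −0.23, 0 and −0.42. Over input the group was low as well, with a median of the mean control shifts of −0.40 and a median of −0.58 in the knockout. In the knockout, Zfp36 went the other way over input (0.35) and Elavl1 lay near the library median (−0.06).

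Cnot3, a subunit of the Ccr4-Not complex, had the lowest shift over the knockout IP after Khsrp among members with at least 10 called peaks in every control list. Its values were −0.63, −0.70 and −0.25 in controls 1 to 3 (mean −0.53 ± 0.24, SD, n = 3). Some of its peaks also lay in the span of Leng1, and without these the mean was −0.36, above those of Edc4 (−0.46) and Pum2 (−0.39), so that its rank was lost. The whole deadenylation group of 12 genes had a median shift of 0.01, with 6 members above 0.

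Smg6, the endonuclease of nonsense-mediated decay, had the highest shift of these members, at 0.15, 1.00 and 1.17 in controls 1 to 3 (mean 0.77 ± 0.55, SD, n = 3). Control 1 thus lay near the library median and the others well above it. No Smg6 peak was enriched in any list, although 37, 35 and 23 were called over input in the controls. Dcp1a, the decapping activator that binds Dcp2, followed with 0, 0.42 and 0.49 (mean 0.30 ± 0.26, SD, n = 3). Its spread nearly equalled its mean. The nonsense-mediated decay group of 7 genes had a median shift of −0.08, with 3 members above 0, namely Upf3b (0.82 ± 0.73), Smg6 and Upf2 (0.43 ± 0.44; SD, n = 3).

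**Figure D5:**
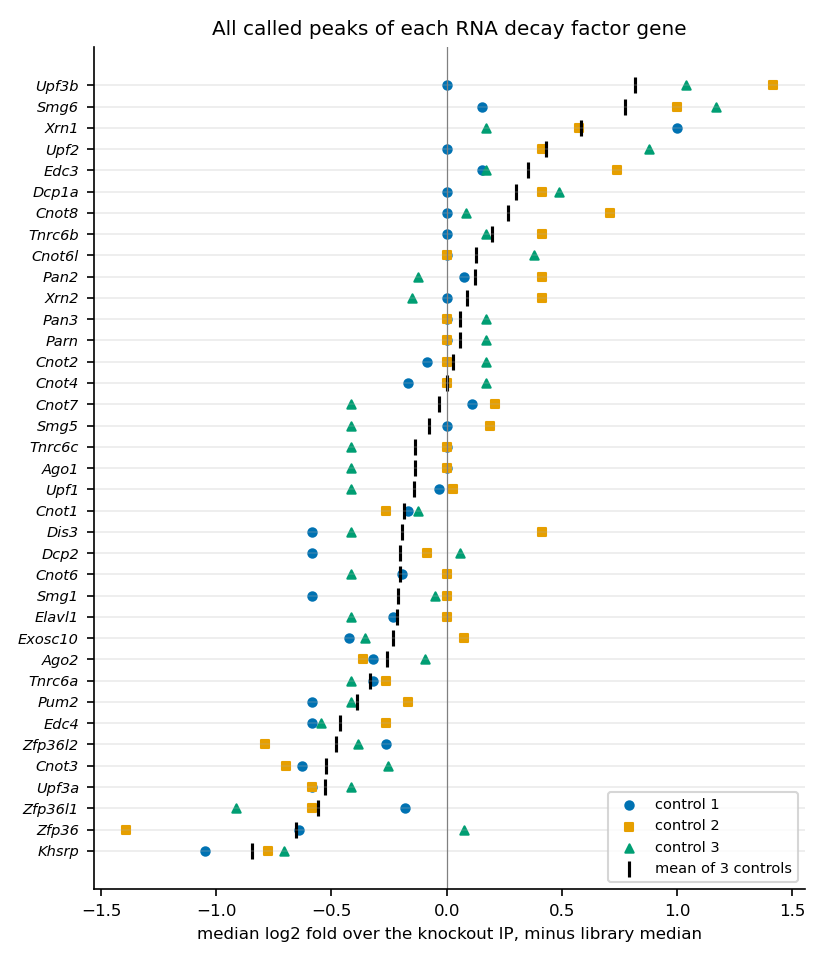
Median log2 fold over the knockout IP of all called peaks of each gene, minus the median of the library, for the 37 genes ordered by their mean over controls (black bars), with 1 symbol per control and 0 as the library median. Khsrp lies lowest at −0.84 and Upf3b, with few called peaks, highest. The symbols of many genes lie on both sides of 0.

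The lists over input share no IP between a control and the knockout, and they allow a comparison at places called in both. The labels do not name the input library behind each list, so it is not known whether any lists share an input. Called knockout peaks overlapped 304 of 885 member peaks in control 1, 290 of 1076 in control 2 and 289 of 872 in control 3. These were 34.4%, 27.0% and 33.1% of the members' peaks, near the 30.5%, 28.2% and 30.1% of all called peaks. The median control minus knockout difference of log2 folds at the overlapped member peaks was 0.84, 0.53 and 0.17, and over all genes it was 0.89, 0.54 and 0.40. The members' median was thus lower by 0.05, 0.01 and 0.23 in controls 1 to 3. Of these member peaks, 48.0%, 49.7% and 40.5% lay above the median over all genes, so controls 1 and 2 were close to it. All 3 comparisons use the 1 knockout list, so their common sign is not independent.

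Further genes of RNA decay came from a second list of 78 genes, of which 68 had called peaks in all 3 controls. A reproducible region lay in 3 of the 68 (4.41%), beside the 2.28% of protein-coding genes. The 3 were Btg2, which recruits Ccr4-Not, Zcchc8, a subunit of the nuclear exosome targeting complex, and Igf2bp2, which binds and stabilises messenger RNAs. With Hbs1l, a ribosome rescue factor, 4 of the 68 (5.88%) had a qualifying peak, below the background of 9.70%. A knockout peak enriched over input lay in 2 of the 68 (2.94%), namely in Lsm7 of the Lsm ring and Rc3h2 of the Roquin family. The share over protein-coding genes called in all 3 controls was near this, at 2.89%. The 68 genes had a median of 10.8 called peaks per gene and control against 8.67 for those genes, and the shares were not matched for peak number.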

How the data were processed

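Per the labels, 4 IPs and their 4 inputs were sequenced, and 7 peak lists were deposited by the authors. No list covers an input alone. Each peak carries a log2 fold and a −log10 p-value of the IP against its comparator, as deposited by the authors. Without a header in the lists, these units were inferred from the values. The −log10 p-value was capped at 400 and was 0 wherever the log2 fold was below 0. The submitters' processing notes name the build mm10. The aligner, the peak caller and the handling of duplicates were not given in these sources.

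Gene spans came from the RefSeq table of GRCm38.p6, without exons. Overlap of peaks meant at least 1 nt on the same strand, and values at a site are those of the peak with the highest log2 fold. Coordinates are 1-based. Members with a reproducible region, a qualifying peak in 1 control, a peak enriched over the knockout IP in at least 2 controls or over input in at least 2 of 4 IPs were named, as were the 2 highest and 2 lowest shifts among members with at least 10 called peaks in every control list. Other genes named, such as the remaining AU-rich element factors and Pum2, were chosen after their values were seen. The members, the gene lists and the thresholds were chosen with earlier results of these data known. Controls are labelled as separate lines, and the SD is over 3 lines; the knockout is 1 line. Alternatives were other thresholds, overlaps and comparators, and the omission of each control in turn. The script for regions was tested on simulated data. Python 3.11.15, pandas 2.3.3, numpy 2.4.6 and matplotlib 3.10.9 were used. Sequences of the sites were not used here.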

Additional observations from a re-analysis of the deposited data

Results flagged for a closer look

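Zfp36, which encodes tristetraprolin, an AU-rich element binding protein, was singled out because its knockout value and its control values lay on opposite sides of the library median. Its shift over input was −0.42, −0.46 and −0.31 in controls 1 to 3 and 0.35 in the knockout. The gene had few called peaks, 6, 3 and 8 in the controls and 6 in the knockout, and none was enriched. The difference was not tested, and the knockout is 1 library.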

How the results depend on the processing

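Against a main mean of 9.67 enriched member peaks over input, a log2 fold of at least 4 gave 5.67, a −log10 p-value of at least 2 gave 15, and one of at least 5 gave 6.33. Over the knockout IP, where the main mean was 6, −log10 p-values of at least 2 and 5 gave 10.3 and 3, and leaving out 1 control gave 3 to 8. The 2 regions became 1, that of Upf3b, at a log2 fold of at least 4, at a −log10 p-value of at least 5, and with support by all 3 controls. Leaving out 1 control gave 1 to 2, with the Cnot1 region lost without control 2 or without control 3. Enrichment over input alone gave 6, adding regions in Dcp2 and Exosc10, and enrichment over the knockout IP alone gave 4, adding Smg1 and Pan3. Support by at least 1 control, chosen as an alternative after seeing the data, gave 9, and members with at least 10 called peaks in every control list, chosen likewise, gave 1 (Cnot1). The median shift of −0.14 over the knockout IP ranged from −0.21 to −0.042 when 1 control was left out. The 8 enriched knockout peaks became 2 at a log2 fold of at least 4. The other 24 alternatives of the main values, 36 of single genes and sites and 5 of the knockout count stayed within the spread between controls or within 1.5 times the main count.

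No paired analysis was possible because the knockout has a single replicate number and each list is already a comparison of an IP with another library. The lists hold no read counts, so the precision of a single peak is unknown.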

Other observations

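Parn, a poly(A)-specific ribonuclease singled out after the values were seen, had called peaks along its span that lay above the library over input in the controls. Its shift over input was 1.00, 1.00 and 0.58 in controls 1 to 3 and 0 in the knockout, and over the knockout IP it was 0, 0 and 0.17. The controls thus exceeded the knockout over input and stood at or near the library median over the knockout IP. No test was made, since the knockout is 1 library. Ago2, chosen in the same way, had the opposite order over input, with 0.26, 0.42 and 0.27 in the controls and 0.77 in the knockout.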
